A study of Mus musculus with 8 samples.

Results

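The antioxidant and redox genes described here are a list of 39 genes, taken by gene symbol from the 23284 symbols of the expression files, and all 39 were found. They cover the transcription factor Nfe2l2 with its inhibitor Keap1, enzymes that make and use glutathione, superoxide dismutases and catalase, peroxiredoxins, thioredoxin and glutaredoxin genes, glutathione transferases and the ferritin chains. They were measured by RNA sequencing in 8 libraries of Lineage- Sca-1+ c-Kit+ (LSK) cells, which in bone marrow comprise the haematopoietic stem cells with the multipotent progenitors. By its title, the series is about how blood sugar and fat after eating affect gene regulation and ageing in stem cells of the marrow. All mice were C57BL/6 males of 12 to 13 weeks, fasted overnight for over 14 hours before each morning injection and fed freely in the daytime. There were 2 libraries after intravenous glucose (2 g/kg), 2 after glucose (2 g/kg) with lipid (6 ml/kg of Intralipid 20%, a fat emulsion), and 4 after phosphate-buffered saline (PBS), named by the letters H, I, J and K. Injections went on for 7 days, marrow of femurs and tibias was taken on day 8, and RNA came from about 10000 sorted cells. The libraries are labelled biological replicates, but the labels do not say whether each came from 1 mouse or a pool, so p-values measure only the spread between these libraries.

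Cells continually make superoxide and hydrogen peroxide, chiefly as by-products of respiration. Superoxide dismutases turn superoxide into peroxide, which catalase splits into water and oxygen. Glutathione peroxidases and peroxiredoxins reduce peroxide to water, mostly with electrons that come from NADPH by way of glutathione or thioredoxin. Nfe2l2 (NRF2) switches on many of these genes. At rest its protein is held and marked for degradation by Keap1, and oxidants or electrophiles that modify Keap1 release it. Haematopoietic stem cells are known for low levels of reactive oxygen, and a rise of these can drive them out of quiescence. Ferritin belongs to the same defence because it stores iron in a form that cannot turn peroxide into hydroxyl radicals.

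Values are FPKM, fragments per kilobase of transcript scaled to library size, by a method that the sources used here do not give. Depth was not given and was estimated from the value of 1 fragment at 5958000 to 8725000 fragments per library. That estimate holds only if each library was scaled to its own fragments. The marker genes of the LSK gate were present in every library, with Kit at 164 to 198 FPKM and Ly6a, which encodes Sca-1, at 295 to 424 FPKM. The library of glucose with lipid replicate 1 stood apart in markers of mature blood cells, which a Lineage- gate is meant to leave out. Its 15 neutrophil markers, led by the alarmin genes S100a8 and S100a9, summed to 8.65% of its FPKM, against 0.0571% to 0.112% in the other 7 libraries, and all 15 were highest there. Its 13 macrophage markers summed to 384 FPKM against 55.1 to 100.5 elsewhere, and its 16 erythroid markers to 4403 FPKM against 1221 to 2914. The 12 genes of the LSK gate summed to 1665 FPKM in it and to 1667 to 2120 FPKM in the others. Differences that leaving this library out moved by over 1.5 times are therefore given with and without it. In RNA from a bulk sort, fewer cells of a type and less RNA per cell cannot be told apart.

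The series gives each treatment its own PBS controls without naming them. Both glucose with lipid and PBS have libraries lettered H and I, so PBS H and I were taken as the controls of glucose with lipid, and PBS J and K as those of glucose by elimination. This is an inference from names. For that reason, each difference printed between a treatment and its controls for a member is also given with the other pair as controls. Differences are on the log2(FPKM + 1) scale, with standard errors from limma, and a gene was called at an adjusted p under 0.05 over all 11931 genes tested. Each main fit held all 8 libraries and estimated 1 spread per gene. Glucose with lipid replicate 1 thus entered the standard errors and p-values of the other comparisons as well. Of the 39 members, 38 were tested. Slc7a11, the cystine importer that feeds glutathione synthesis, did not reach 1 FPKM in 2 libraries, with 0.0538 and 0.257 FPKM after glucose, 0.583 and 0.0590 FPKM after glucose with lipid, and 0 to 0.0834 FPKM in PBS. Gpx3, the secreted glutathione peroxidase, passed that filter only through the libraries of glucose with lipid.

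LSK cells held large amounts of a few redox transcripts. The ferritin heavy chain gene Fth1, whose protein oxidises iron for storage, averaged 2368 ± 256 FPKM in PBS (SD, n = 4) and ranked 8th of all genes, and the peroxide-reducing enzyme gene Gpx1 averaged 1662 ± 113 FPKM and ranked 10th. The ferritin light chain gene Ftl1, whose protein forms the iron core, averaged 729 ± 85.7 FPKM and ranked 66th. With Ftl1, 13 members lay between 100 and 1000 FPKM, 20 between 10 and 100, 2 between 1 and 10 (Nqo1 and Mgst2) and 2 under 1 (Gpx3 and Slc7a11). In the order of all 39, only 8 of the 38 neighbours were apart in all 4 PBS libraries, while 30 overlapped. The members varied little: over the 7 libraries without glucose with lipid replicate 1, the median coefficient of variation of the 38 tested members was 11.2%, against 16.1% for all genes tested. Restricted to genes of at least 20 FPKM, these medians were 10.99% for 33 members and 12.0% for 5218 genes.

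**Figure D1:**
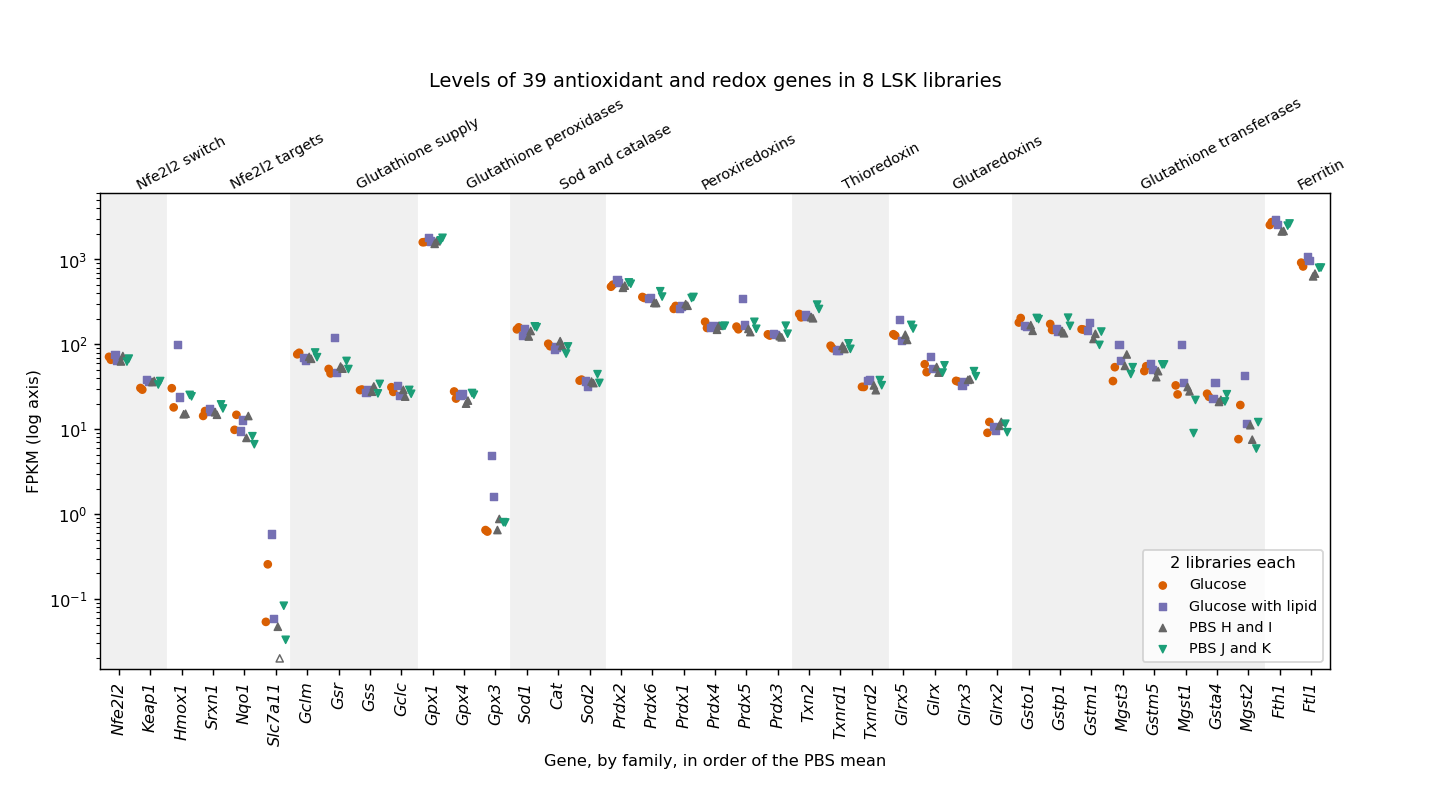
FPKM (log axis) of the 39 genes in each of the 8 libraries, by family and in order of the PBS mean within a family; each point is 1 library and the open triangle is a value listed at 0. Fth1 and Gpx1 stand above 1000 FPKM in every library, and the squares far above their neighbours at Hmox1, Gsr, Gpx3, Prdx5, Mgst1 and Mgst2 are glucose with lipid replicate 1.

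Within the families 1 gene often carried most of the transcript. Gpx1 made up 98.2% to 98.7% of the summed FPKM of the 3 glutathione peroxidases in all 8 libraries. Gpx4, which protects membranes by reducing lipid hydroperoxides, stood at 20.0 to 27.9 FPKM. Prdx2, the abundant cytosolic peroxiredoxin of blood cells, led its family with 29.4% to 32.6%. Prdx6, which uses glutathione instead of thioredoxin, and the cytosolic Prdx1 followed at PBS means of 351 and 324 FPKM and overlapped. The endoplasmic reticulum form Prdx4, Prdx5 and the mitochondrial Prdx3 lay at PBS means of 161, 157 and 136 FPKM and overlapped too. The mitochondrial thioredoxin gene Txn2 averaged 242 ± 43.7 FPKM in PBS, above the cytosolic reductase gene Txnrd1 at 93.9 ± 6.98 FPKM and the mitochondrial reductase gene Txnrd2 at 33.2 ± 3.74 FPKM. The cytosolic dismutase gene Sod1 averaged 148 ± 18.0 FPKM, the peroxisomal catalase gene Cat 94.3 ± 12.8 FPKM and the mitochondrial dismutase gene Sod2 37.8 ± 4.57 FPKM, with no overlap between neighbours (SD, n = 4 each).

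Among the glutaredoxins, Glrx5, needed for iron-sulfur clusters in mitochondria, led with a PBS mean of 142 FPKM. Glrx and Glrx3, of the cytosol, overlapped at 51.0 and 41.9 FPKM, and the mitochondrial Glrx2 was lowest at 11.01 FPKM. For glutathione supply, Gclm, the regulatory subunit of the rate-limiting ligase, averaged 72.5 FPKM and its catalytic partner Gclc 27.2 FPKM. The next enzyme Gss averaged 30.1 FPKM, and Gsr, which regenerates reduced glutathione, 55.4 FPKM. Of the transferases, which attach glutathione to electrophiles, Gsto1, Gstp1 and Gstm1 led at 179, 162 and 122 FPKM, with overlapping values. Mgst3, Gstm5, Mgst1 and Gsta4 followed at 57.6, 51.4, 22.6 and 22.6 FPKM, and Mgst2, which can make leukotrienes, was lowest at 9.20 FPKM. The Gstm and Gstp genes have close paralogs, and Ftl1, Gpx4 and Prdx6 have annotated pseudogenes (Ftl1-ps2, Gpx4-ps2 and Prdx6-ps2). How reads shared between such copies were assigned is not given in the sources used here, so the levels of these genes are uncertain by that amount.

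The order of genes within a family held in the treated cells for 7 of the 10 families. The exceptions were glutathione supply, the peroxiredoxins and the transferases. Without glucose with lipid replicate 1, treated means kept the PBS order for glutathione supply and the peroxiredoxins, but not for the transferases. Prdx5 and Prdx4 averaged 207 and 166 FPKM in treated cells with that library, and 160 and 169 FPKM without it. In PBS H and I alone 9 families kept it, and in PBS J and K alone 8.

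Nfe2l2 and Keap1, the switch above many of these genes, differed little between groups. Nfe2l2 stood at 71.4 and 65.9 FPKM after glucose and at 76.3 and 65.0 FPKM after glucose with lipid, against 62.9, 72.9, 62.8 and 68.0 FPKM in PBS H, I, J and K. Keap1 stood at 30.6 and 29.3 FPKM after glucose and at 38.9 and 36.7 FPKM after glucose with lipid, against 36.0, 37.1, 33.7 and 37.0 FPKM in PBS H, I, J and K. Nfe2l2 overlapped its controls in both treatments. Keap1 after glucose lay below all 4 PBS libraries, with a difference from PBS J and K of -0.23 ± 0.11 SE (limma, adjusted p = 0.374) and one of -0.28 from PBS H and I. In the comparison with lipid its difference was 0.05 ± 0.11 (adjusted p = 0.908), with 0.01 without replicate 1 and 0.09 against PBS J and K. These are transcript levels, while Keap1 acts on the Nfe2l2 protein, which was not measured.

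Nfe2l2 binds DNA with small Maf proteins at the antioxidant response element, whose core is TGACNNNGC. RefSeq promoter windows of GRCm38.p6, from 250 bases before to 50 after a gene's start, were searched for it on both strands (GCNNNGTCA in reverse). Of the 34 members with a window, 8 held a match (23.5%), against 14.0% of 27025 genes. Counted by windows, it was 8 of 46 (17.4%) against 12.4% of 32851. The 8 were Nfe2l2, Srxn1, Gstm5, Gclm, Prdx1, Mgst1, Txnrd1 and Sod1. Shown here are the upstream bases around the match of Nfe2l2 itself, of Gclm as a classical target, and of Prdx1 and Mgst1. The last 2 are named in the glucose comparison below, while Txn2, Glrx3, Nqo1 and Gstm1, also named there, are not among the 8. Capitals mark the match in either orientation. The last sequence is the 100 bases before the start of Ftl1, the member nearest to a call, whose window held 0 matches and so has no capitals.
Nfe2l2: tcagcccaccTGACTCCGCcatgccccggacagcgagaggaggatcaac
Gclm: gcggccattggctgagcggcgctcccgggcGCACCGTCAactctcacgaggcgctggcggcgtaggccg
Prdx1: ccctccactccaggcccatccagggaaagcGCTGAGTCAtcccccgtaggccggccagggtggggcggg
Mgst1: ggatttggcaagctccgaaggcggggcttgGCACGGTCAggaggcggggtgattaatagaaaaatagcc
Ftl1: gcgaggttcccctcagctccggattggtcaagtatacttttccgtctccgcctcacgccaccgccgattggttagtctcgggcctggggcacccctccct
The Nfe2l2 bases lie at chr2:75704865-75704913 on the minus strand, with the match starting at -240 from the gene's start. Those of Gclm lie at chr3:122245393-122245461 (plus strand, -134), of Prdx1 at chr4:116685436-116685504 (plus strand, -133), of Mgst1 at chr6:138140441-138140509 (plus strand, -56) and of Ftl1 at chr7:45459887-45459986 (minus strand). A match describes letters in a window and is not a binding site, and elements further away were not searched.

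The first comparison asks which LSK transcripts differ after daily glucose alone. No member was called, against 12 of all 11931 genes tested (0.101%). Of the 38 tested members, 3 had an unadjusted limma p under 0.05 (Prdx1, Txn2 and Glrx3, all lower), against 14.8% of all genes. The spread behind these p-values includes that of glucose with lipid replicate 1, so this count depends on it. The median difference of the members was -0.07 with 14 above 0, beside a median of 0 over all genes. In 14 members (36.8%), every glucose library lay below both of PBS J and K, as in 24.8% of all genes, and in 5 (13.2%: Nqo1, Cat, Gstm1, Mgst1 and Ftl1) every one lay above, as in 22.3%.

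Prdx1 stood at 262 and 284 FPKM after glucose, against 352 and 362 FPKM in PBS J and K. The groups did not overlap, and the difference was -0.39 ± 0.09 SE (limma, unadjusted p = 0.00267, adjusted p = 0.204). PBS H and I, at 298 and 285 FPKM, lay far closer to the glucose libraries, and with them as controls the difference was -0.10. Txn2 stood at 228 and 208 FPKM after glucose, against 294 and 261 FPKM in PBS J and K, again without overlap (-0.35 ± 0.10, adjusted p = 0.229). PBS H and I held 209 and 203 FPKM of it, and against them the sign turned, to 0.08. Glrx3, a carrier of iron-sulfur clusters, stood at 37.2 and 36.5 FPKM after glucose, against 48.4 and 42.2 FPKM in PBS J and K (-0.29 ± 0.11, adjusted p = 0.309). With PBS H and I, at 38.2 and 38.7 FPKM, its difference was -0.06.

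The 3 members named on the higher side did not come close to the threshold. Nqo1, a quinone reductase and a standard readout of Nfe2l2 activity, stood at 9.85 and 14.8 FPKM after glucose, against 8.29 and 6.66 FPKM in PBS J and K (0.63 ± 0.30, adjusted p = 0.382). PBS H and I alone ranged from 7.91 to 14.3 FPKM, and against them the difference was 0.16. Mgst1, a membrane-bound transferase and peroxidase, stood at 32.9 and 25.7 FPKM after glucose, against 9.01 and 22.1 FPKM in PBS J and K (0.98 ± 0.50, adjusted p = 0.408). In PBS H and I it was at 31.4 and 27.9 FPKM, and against them the difference was -0.03. Gstm1 stood at 151 and 149 FPKM after glucose, against 98.7 and 142 FPKM in PBS J and K (0.34 ± 0.18, adjusted p = 0.421), and its difference from PBS H and I was 0.27.

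Other Nfe2l2 targets gave no common direction after glucose. Hmox1, which breaks down haem to iron, carbon monoxide and biliverdin, stood at 30.4 and 18.1 FPKM after glucose, against 25.4 and 24.4 FPKM in PBS J and K, with the controls between the glucose libraries (-0.08 ± 0.55, and 0.60 with PBS H and I). Srxn1, which repairs over-oxidised peroxiredoxins, stood at 14.4 and 16.4 FPKM after glucose, against 19.6 and 17.6 FPKM in PBS J and K (-0.26 ± 0.14, adjusted p = 0.418), and its difference from PBS H and I was 0.00. Gclm had 76.4 and 79.6 FPKM after glucose, against 80.3 and 70.7 FPKM in PBS J and K. Gclc, the catalytic subunit, had 31.3 and 27.6 FPKM after glucose, against 29.1 and 26.2 FPKM in PBS J and K. Gpx1, Prdx2 and Prdx3 lay below PBS J and K in both glucose libraries, and Fth1 overlapped. Gpx1 stood at 1596 and 1605 FPKM after glucose, against 1683 and 1801 FPKM in PBS J and K (-0.12 ± 0.10). The difference from PBS H and I was 0.02. Prdx2 stood at 478 and 505 FPKM after glucose, against 538 and 518 FPKM in PBS J and K (-0.10 ± 0.09, but 0.04 with PBS H and I). Prdx3 stood at 131 and 127 FPKM after glucose, against 166 and 134 FPKM in PBS J and K (-0.20 ± 0.12, but 0.07 with PBS H and I).

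Fth1 stood at 2548 and 2758 FPKM after glucose, against 2509 and 2658 FPKM in PBS J and K (0.04 ± 0.11, but 0.30 with PBS H and I). Ftl1 stood at 918 and 828 FPKM after glucose, against 798 and 804 FPKM in PBS J and K, without overlap (0.12 ± 0.10, adjusted p = 0.599). Against PBS H and I, at 632 and 682 FPKM, its difference was 0.41. Gpx3 was low throughout, at 0.649 and 0.624 FPKM after glucose, against 0.805 and 0.798 FPKM in PBS J and K. All 3 glutathione peroxidases and all 3 thioredoxin genes had differences below 0, as did 5 of the 6 peroxiredoxins, none of them called. With the other PBS pair, differences above 0 were seen in 2 of the 3 peroxidases, all 3 thioredoxin genes and 5 of the 6 peroxiredoxins. Sod1 stood at 150.4 and 158.7 FPKM after glucose, against 163 and 159.5 FPKM in PBS J and K, which almost touched. Sod2 overlapped, at 37.4 and 38.5 FPKM after glucose, against 44.6 and 35.2 FPKM in PBS J and K. Of the glutaredoxin and transferase genes, Glrx2 stood at 9.08 and 12.2 FPKM after glucose, against 11.6 and 9.24 FPKM in PBS J and K. Mgst2 stood at 7.65 and 19.3 FPKM after glucose, against 5.93 and 12.2 FPKM in PBS J and K. Gsto1 stood at 181 and 204 FPKM after glucose, against 205 and 198 FPKM in PBS J and K. These 3 overlapped, while Txnrd2 at 31.6 and 31.5 FPKM after glucose, against 37.97 and 33.1 FPKM in PBS J and K, did not. Glrx5 did not either, at 132 and 127 FPKM after glucose, against 169.7 and 154 FPKM in PBS J and K. Against PBS H and I in place of J and K, 20 of the 38 members turned sign and 28 lay above 0. The members' median was then 0.083, beside -0.003 for all genes. Sign turns over all genes were not counted, so the 20 has no background to be read against.

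**Figure D2:**
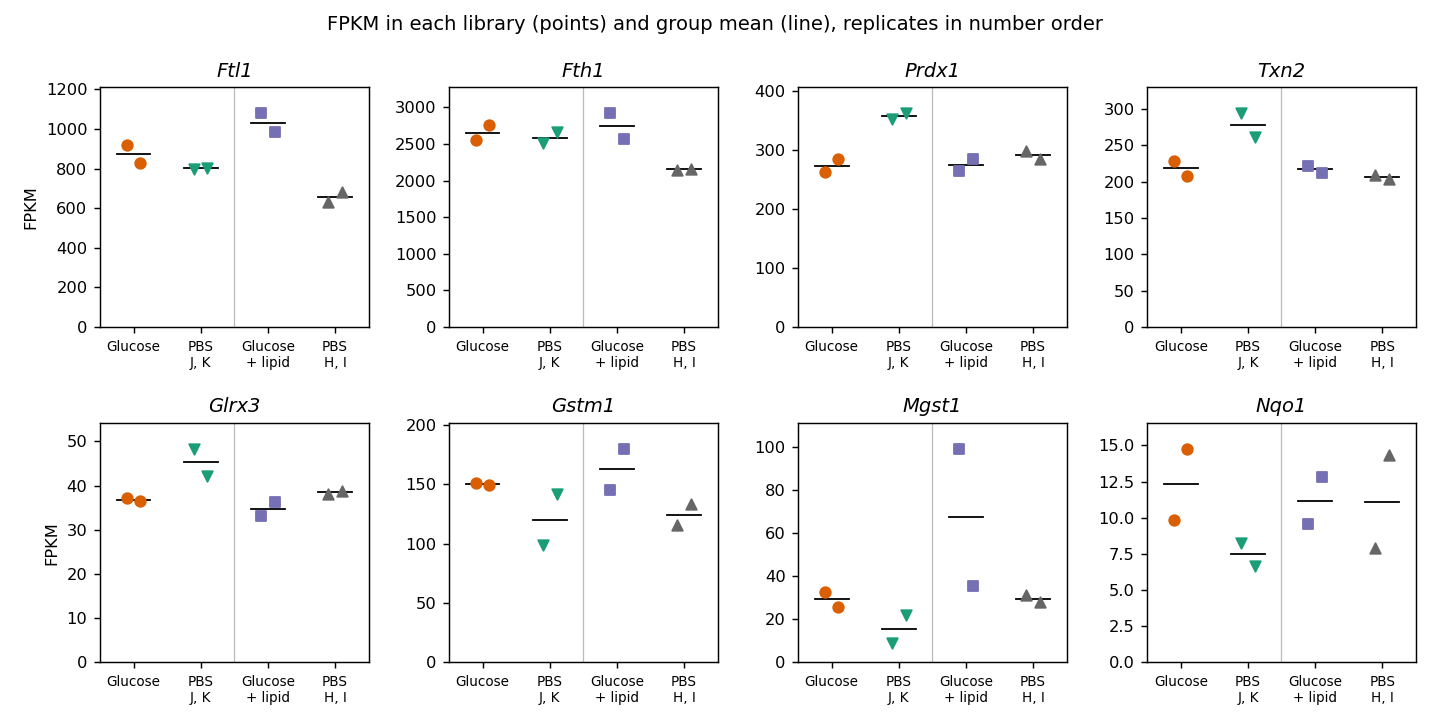
FPKM of 8 genes in each library, with points for libraries (replicates from left to right) and lines for group means; the grey line parts the glucose comparison from the comparison with lipid. For Prdx1 and Txn2 the PBS J and K libraries stand above the other 6, and for Ftl1 the PBS H and I libraries stand below the other 6.

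The second comparison asks the same where fat was given with the sugar. No member was called, against 9 of all genes (0.0754%). An unadjusted limma p under 0.05 was reached by 6 of 37 members, all higher (Ftl1, Fth1, Hmox1, Prdx5, Prdx2 and Txnrd2), against 11.8% of all genes. Gpx3 is left out of that count, since it entered the test only through the libraries in which it was high, and it adds 1 to each count of higher members among the 38 here. The members' median was 0.13 with 30 above 0, beside 0.01 for all genes. In 19 of the 38 members both treated libraries lay above both of PBS H and I, as in 22.2% of all genes, and in 5 (13.2%: Cat, Prdx1, Txnrd1, Glrx2 and Glrx3) both lay below, as in 21.8%. Without glucose with lipid replicate 1 the median was 0.07 with 25 above 0, and 3 members had such a p (Ftl1, Gsta4 and Gstm1), against 11.1% of all genes. On the remaining library 21 members lay above both controls and 9 below both, beside 38.7% and 37.4% of all genes.

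The ferritin chains led. Ftl1 stood at 1080 and 983 FPKM after glucose with lipid, against 632 and 682 FPKM in PBS H and I, without overlap. Its difference was 0.65 ± 0.10 SE, with an unadjusted p of 0.000197 and an adjusted p of 0.084 in limma, which missed the threshold. Fth1 stood at 2923 and 2567 FPKM after glucose with lipid, against 2140 and 2165 FPKM in PBS H and I, also without overlap (0.35 ± 0.11, adjusted p = 0.296). Both chains were already higher in PBS J and K than in PBS H and I. With PBS J and K as controls the differences were 0.36 for Ftl1 and 0.09 for Fth1. Without glucose with lipid replicate 1 they were 0.58 and 0.25 against PBS H and I. The summed erythroid markers were 4403 and 2914 FPKM after glucose with lipid, against 1798 and 1928 FPKM in PBS H and I. They were lower in PBS J and K (1363 and 1221 FPKM) and after glucose (1547 and 1324 FPKM). In both of those groups Ftl1 was higher than in PBS H and I. The macrophage markers summed to 384 and 74.2 FPKM with lipid and to 55.1 FPKM in each of PBS H and I. In PBS J and K they summed to 100.5 and 84.2 FPKM, and after glucose to 87.0 and 80.6 FPKM. The part of either list in the ferritin values was not tested. Ftl1 lies on chromosome 7 at 45457944 to 45459886 and Fth1 on chromosome 19 at 9980600 to 9985111 of GRCm38.

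Hmox1 had the largest difference of the members, 1.64 ± 0.55 (adjusted p = 0.338), and its replicates lay far apart. It stood at 99.9 and 23.9 FPKM after glucose with lipid, against 15.02 and 15.2 FPKM in PBS H and I. The difference from PBS J and K was 0.95. Without replicate 1 it was 0.63 against PBS H and I, and the remaining 23.9 FPKM lay below the 25.4 and 24.4 FPKM of PBS J and K. Gpx3 stood at 4.96 and 1.63 FPKM after glucose with lipid, against 0.650 and 0.878 FPKM in PBS H and I (1.17 ± 0.38, adjusted p = 0.325). It was at 0.62 to 0.88 FPKM in the other 6 libraries, so its test rests on the libraries that let it pass the filter. Its difference was 0.58 without replicate 1 and 1.13 against PBS J and K. Prdx5 stood at 347 and 169 FPKM after glucose with lipid, against 152 and 139 FPKM in PBS H and I (0.73 ± 0.29, adjusted p = 0.389), with 0.21 without replicate 1 and 0.53 against PBS J and K.

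The replicates lay closer together for Prdx2, Txnrd2 and Gpx1. Prdx2 stood at 583 and 532 FPKM after glucose with lipid, against 464 and 492 FPKM in PBS H and I (0.22 ± 0.09, adjusted p = 0.407), and the difference from PBS J and K was 0.08. Txnrd2 stood at 37.3 and 38.6 FPKM after glucose with lipid, against 32.8 and 28.8 FPKM in PBS H and I (0.29 ± 0.12, adjusted p = 0.407), and the difference from PBS J and K was 0.10. Gpx1 had 1800 and 1647 FPKM after glucose with lipid, against 1528 and 1637 FPKM in PBS H and I (0.12 ± 0.10, adjusted p = 0.666), with 0.06 without replicate 1 and -0.02 against PBS J and K. All 8 transferases had differences above 0, from 0.07 to 1.21, with no unadjusted p under 0.05. Without replicate 1, 7 of 8 lay above 0, and against PBS J and K 5 of 8 did. Among them Gstm1 stood at 145 and 180 FPKM after glucose with lipid, against 116 and 133 FPKM in PBS H and I (0.38 ± 0.18, or 0.45 with PBS J and K). Gsta4, which conjugates the aldehydes of lipid peroxidation, stood at 23.1 and 35.6 FPKM after glucose with lipid, against 21.0 and 22.2 FPKM in PBS H and I (0.39 ± 0.20). Its difference was 0.70 without replicate 1 (adjusted p = 0.296) and 0.28 against PBS J and K.

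On the lower side Cat stood at 87.1 and 92.9 FPKM after glucose with lipid, against 109 and 95.7 FPKM in PBS H and I (-0.18 ± 0.13, adjusted p = 0.616). Against PBS J and K, at 77.9 and 94.7 FPKM, its sign turned, to 0.07. Glrx3 stood at 33.1 and 36.2 FPKM after glucose with lipid, against 38.2 and 38.7 FPKM in PBS H and I (-0.15 ± 0.11). Its difference was -0.085 without replicate 1 and -0.38 against PBS J and K. Prdx1 stood at 264 and 284 FPKM after glucose with lipid, against 298 and 285 FPKM in PBS H and I (-0.09 ± 0.09). Here the closest libraries were almost level, and the difference was -0.04 without replicate 1. Against PBS J and K, at 352 and 362 FPKM, it was -0.38, with the smallest adjusted p of the members under that pairing (limma, 0.132). Sod1 had 128 and 155 FPKM after glucose with lipid, against 124 and 144 FPKM in PBS H and I. Sod2 had 37.1 and 32.2 FPKM after glucose with lipid, against 36.4 and 34.9 FPKM in PBS H and I. Both dismutases overlapped their controls. Gclm had 69.7 and 65.5 FPKM after glucose with lipid, against 71.2 and 67.6 FPKM in PBS H and I. Gclc had 32.7 and 24.98 FPKM after glucose with lipid, against 29.1 and 24.2 FPKM in PBS H and I. Nqo1 had 9.54 and 12.8 FPKM after glucose with lipid, between the 7.91 and 14.3 FPKM of PBS H and I. These 3 Nfe2l2 targets overlapped their controls as well. Prdx3 had 134 and 129.8 FPKM after glucose with lipid, against 125 and 121 FPKM in PBS H and I, without overlap (0.10 ± 0.12, and -0.17 with PBS J and K). Gsto1 had 165 and 163 FPKM after glucose with lipid, against 169 and 144 FPKM in PBS H and I, with overlap. Glrx2 had 10.8 and 9.78 FPKM after glucose with lipid, against 10.97 and 12.2 FPKM in PBS H and I, with no overlap. With PBS J and K as controls, 13 of the 38 members turned sign and 19 lay above 0. The members' median was then 0.019, beside 0.004 for all genes, whose sign turns were not counted.

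**Figure D3:**
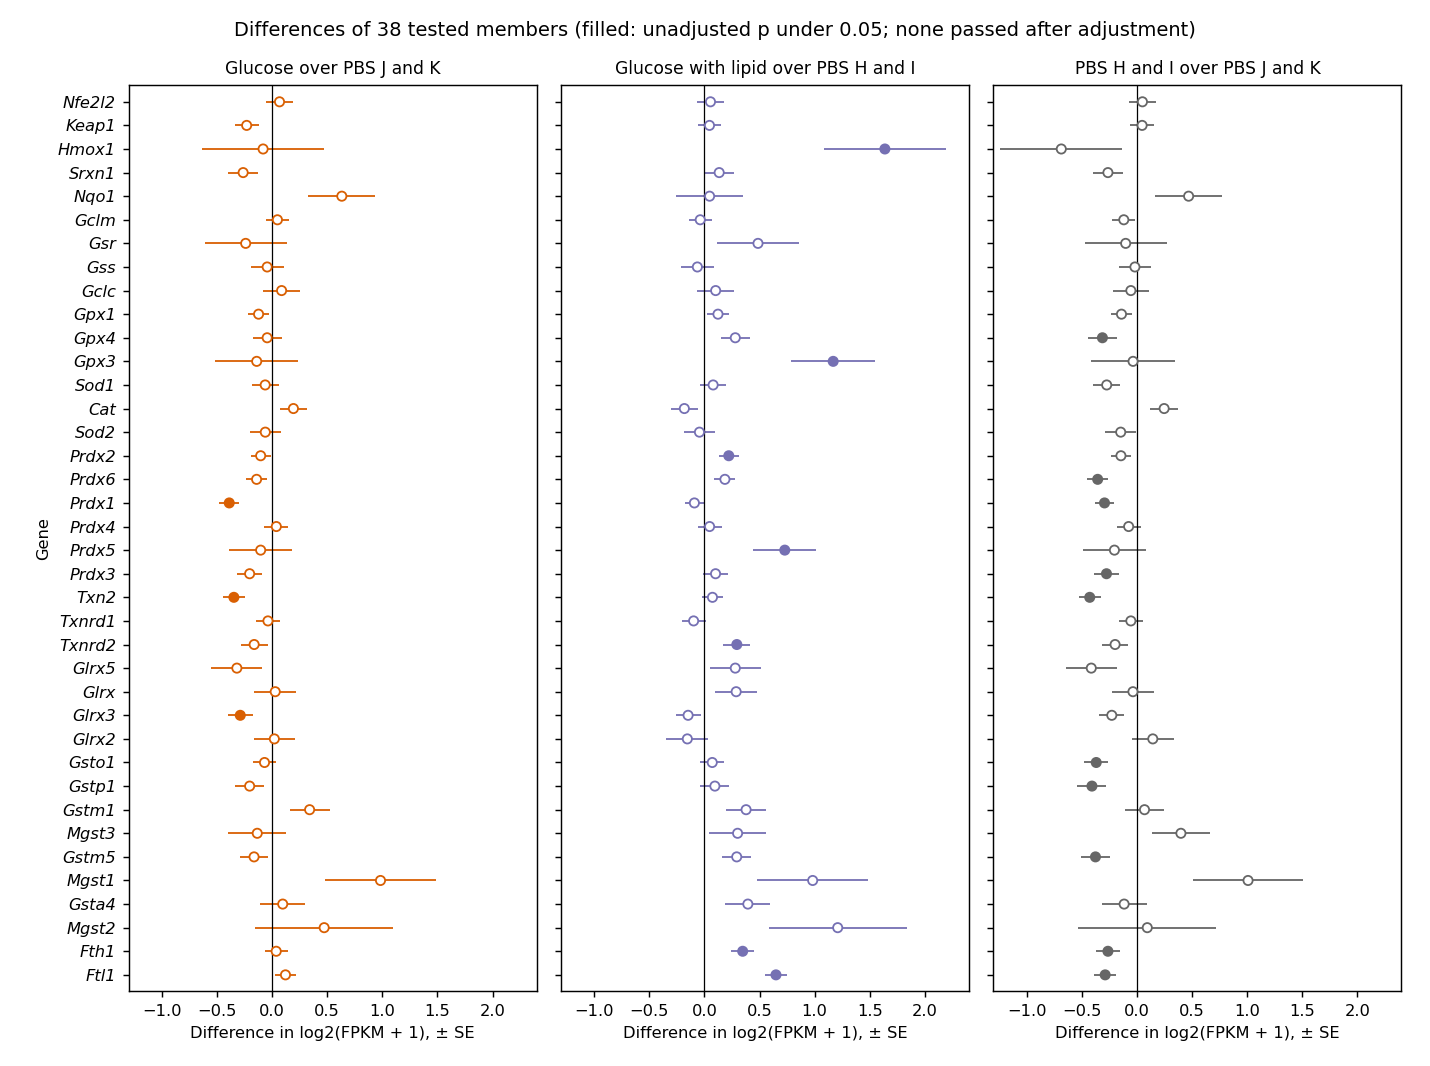
Difference in log2(FPKM + 1) with its standard error for the 38 tested genes in the comparison of glucose, of glucose with lipid, and between the PBS pairs; filled points have an unadjusted p under 0.05 in limma. Several genes right of 0 in the middle panel are left of 0 in the right panel, which shares PBS H and I with it.

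Glucose with lipid replicate 1 held the highest value of the 8 libraries for 17 of the 39 members. Among the tested, these were 16 of 38 (42.1%), against 15.3% of all genes tested. In 6 of the 38 (15.8%) it exceeded the next library at least 1.5-fold, against 3.503% of all genes. These were Hmox1 (3.28-fold), Gpx3 (3.05-fold), Mgst1 (2.81-fold), Mgst2 (2.21-fold), Gsr (1.90-fold) and Prdx5 (1.88-fold). Gpx3 adds 1 to the 16 and to the 6, since it passed the filter only through glucose with lipid. Mgst1 stood at 99.5 and 35.5 FPKM after glucose with lipid, against 31.4 and 27.9 FPKM in PBS H and I. Its difference was 0.98 with replicate 1 and 0.25 without it, and 1.99 against PBS J and K (adjusted p = 0.144). Mgst2 stood at 42.6 and 11.7 FPKM after glucose with lipid, against 11.2 and 7.54 FPKM in PBS H and I, with 1.21 and 0.32, and 1.30 against PBS J and K. Gsr stood at 121 and 46.2 FPKM after glucose with lipid, against 54.8 and 51.8 FPKM in PBS H and I. Its difference was 0.49 with replicate 1 and turned sign without it, to -0.20, and was 0.39 against PBS J and K. Mgst3, at 100.3 and 64.5 FPKM after glucose with lipid, against 55.8 and 76.03 FPKM in PBS H and I, had 0.30 and -0.01, and 0.70 against PBS J and K. Glrx5, a gene of iron-sulfur cluster assembly, at 195 and 111 FPKM after glucose with lipid, against 130 and 113 FPKM in PBS H and I, had 0.28 and -0.12, and -0.13 against PBS J and K.

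The same library also held the highest values of genes of the phagocyte NADPH oxidase, the enzyme with which neutrophils and macrophages make superoxide. Cybb, its catalytic subunit, chosen after its values were seen, stood at 80.6 FPKM there and at 0.06 to 0.85 FPKM in the other 7 libraries. Of the 18 listed genes of superoxide sources, 11 were highest there. With replicate 1 as the only library of glucose with lipid, taken to vary like the other groups, 271 of all genes (2.27%) were called against PBS H and I. Of 37 members without Gpx3, 4 were (Hmox1 2.65, Prdx5 1.247, Gsr 1.17 and Ftl1 0.72, with adjusted p from 0.003 to 0.0234). Gpx3 was called too, at 1.76, but entered the test only through glucose with lipid. With replicate 2 alone the differences were smaller, at 0.63 for Hmox1 and 0.21 for Prdx5, and that of Gsr turned to -0.20. The value of Ftl1 without replicate 1 is given above. The neutrophil and macrophage transcripts of replicate 1 moved with Hmox1, Prdx5, Gsr and Gpx3, and their part was not tested. For Ftl1 the replicates lay close together, at 1080 and 983 FPKM.

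**Figure D4:**
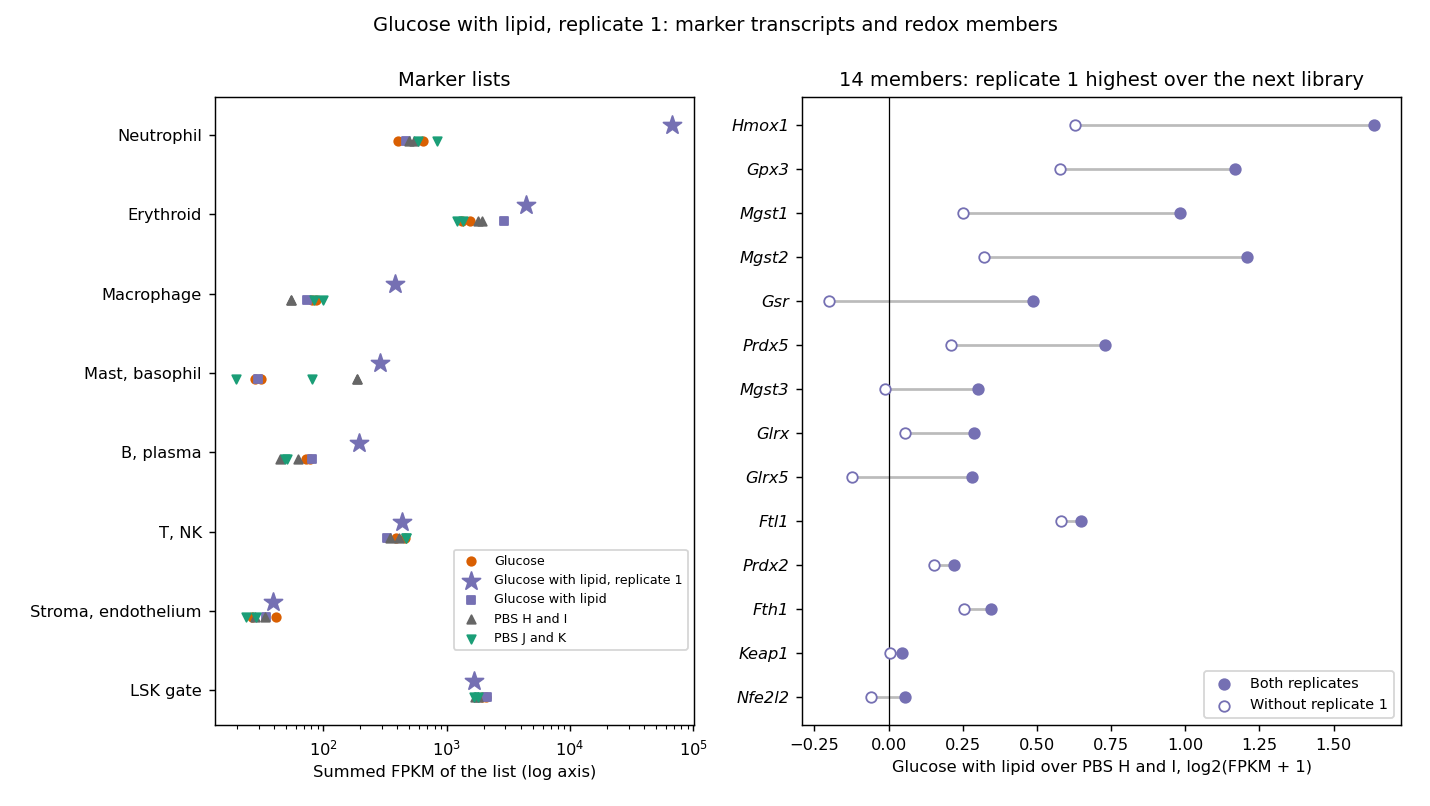
Left, summed FPKM (log axis) of 8 marker lists in each library, with a star for glucose with lipid replicate 1; right, difference of 14 genes between glucose with lipid and PBS H and I with both replicates (filled) and without replicate 1 (open). The star lies far right of the other libraries for neutrophil markers (67390 FPKM against at most 832), and open points of Gsr, Glrx5, Mgst3 and Nfe2l2 lie left of 0 while Ftl1 is at 0.65 with and 0.58 without it.

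Whether the treatments differed in their effects was tested directly, as the effect of glucose with lipid minus that of glucose, each against its own controls. No member was called, against 2 of all genes (0.0168%). The members' median was 0.30 with 30 of 38 above 0, beside 0.03 over all genes. In limma, 8 members, Gpx3 among them, had an unadjusted p under 0.05, all above 0, against 12.2% of all genes. Gpx3 adds 1 to the 30 and to the 8, since it passed the filter only through glucose with lipid. Without glucose with lipid replicate 1 the median was 0.20 with 28 above 0, and 5 had such a p. Ftl1 came nearest at 0.53 ± 0.14 (adjusted p = 0.301), from 0.65 with lipid and 0.12 after glucose alone. Txn2 followed at 0.42 ± 0.14 (adjusted p = 0.337), from 0.07 with lipid (0.04 without replicate 1, and -0.35 against PBS J and K) and -0.35 after glucose. Below 0 lay Cat at -0.38 ± 0.18 (adjusted p = 0.435), with -0.18 and 0.19, and Nqo1 at -0.59 ± 0.43 (adjusted p = 0.601), with 0.05 and 0.63. With lipid Nqo1 had 0.24 without replicate 1 and 0.52 against PBS J and K. After glucose Cat had -0.05 against PBS H and I. Because all 4 PBS libraries enter this difference, a gap between the PBS pairs enters it in full. The treated libraries themselves held about the same Txn2, at 221 and 212 FPKM with lipid and 228 and 208 FPKM after glucose alone.

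All treated and all PBS libraries, 4 each, were also compared in a model with a term for the control set, since all treated mice had glucose. No member was called, against 32 of all genes (0.268%), and 5 of 38 had an unadjusted p under 0.05 in limma, against 11.4% of all genes. Ftl1, with 828 to 1080 FPKM in treated cells and a median of 950.3, lay above the 632 to 804 FPKM of PBS cells with a median of 740 (0.39 ± 0.12, adjusted p = 0.328). Gstm1 lay at 145 to 180 FPKM in treated cells, above the 98.7 to 142 FPKM of PBS cells (0.36 ± 0.12, adjusted p = 0.35). These were the 2 members (5.26%) higher in every treated than in every PBS library, as were 3.55% of all genes. Prdx1 lay at 262 to 284 FPKM in treated cells, just below the 285 to 362 FPKM of PBS cells (-0.24 ± 0.09, adjusted p = 0.370). Glrx3 lay at 33.1 to 37.2 FPKM in treated cells, below the 38.2 to 48.4 FPKM of PBS cells (-0.22 ± 0.09, adjusted p = 0.395). Only these 2 (5.26%) were lower throughout, as were 2.84% of all genes. Without glucose with lipid replicate 1 the differences were 0.31 for Ftl1, 0.42 for Gstm1, -0.25 for Prdx1, -0.21 for Glrx3 and 0.69 for Mgst1. Mgst1 (0.98 ± 0.33, adjusted p = 0.347) and Txn2 (-0.14 ± 0.10, adjusted p = 0.621), the other members named here, overlapped between treated and PBS libraries.

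The PBS pairs had the same treatment by the labels. No member was called between PBS H and I and PBS J and K, against 6 of all genes (0.0503%). By limma, 10 of 38 members had an unadjusted p under 0.05, all lower in PBS H and I, against 17.2% of all genes. Their median was -0.14 with 29 below 0, beside 0 for all genes. In 19 of the 38 members both libraries of PBS H and I lay below both of PBS J and K, as in 25.3% of all genes, and in 3 (7.90%: Cat, Mgst1 and Mgst3) both lay above, as in 24.4%. Txn2 had the smallest p, with 209 and 203 FPKM in PBS H and I against 294 and 261 FPKM in PBS J and K (-0.43 ± 0.10, adjusted p = 0.135). Prdx6 followed with 308 and 307 FPKM in PBS H and I against 423 and 366 FPKM in PBS J and K (-0.36 ± 0.10, adjusted p = 0.162). Gsto1 had 169 and 144 FPKM in PBS H and I against 205 and 198 FPKM in PBS J and K (-0.37 ± 0.11). Gstp1 had 143 and 135 FPKM in PBS H and I against 206 and 165 FPKM in PBS J and K (-0.41 ± 0.13), both without overlap. Mgst1 ran the other way at 1.01 ± 0.50, as did Cat at 0.25 ± 0.13, with 109 and 95.7 FPKM in PBS H and I against 77.9 and 94.7 FPKM in PBS J and K. This comparison shares PBS J and K with that of glucose and PBS H and I with that of glucose with lipid. A low value in PBS J and K raises both this difference and that of glucose. In PBS H and I a low value lowers this difference and raises that of glucose with lipid. The letters and tags give the pairs, and neither the date nor the handling of each was stated. Pair and treatment set cannot be told apart.

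The wider pathway was followed in 9 lists of other genes, given by counts and medians. No gene of any list was called in any of the 5 comparisons. Of 12 regulators of Nfe2l2, all were tested and the medians were 0.19 after glucose and 0.09 with lipid. The most abundant were Sqstm1, the autophagy receptor that competes for Keap1, at a mean of 102 FPKM over the 8 libraries, the ligase subunit gene Rbx1 at 89.2 FPKM and Dpp3 at 63.3 FPKM. Of 22 further Nfe2l2 targets, 20 were tested, with medians of -0.02 after glucose and 0.17 with lipid. They were led by the cytosolic thioredoxin gene Txn1 at 404 FPKM and the pentose phosphate enzyme genes Taldo1 at 220 FPKM and Tkt at 216 FPKM. Among those targets Osgin1, an oxidative stress-induced growth inhibitor, was chosen after its values were seen. It stood at 20.5 and 19.6 FPKM after glucose, against 10.99 and 10.5 FPKM in the J and K controls. It stood at 25.6 and 30.6 FPKM after glucose with lipid, against 11.6 and 20.2 FPKM in PBS H and I. Its treated values overlapped the PBS values as a whole, and its difference over all 8 libraries was 0.84 ± 0.16 (limma, adjusted p = 0.114).

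Of 37 further genes of glutathione supply, transfer and breakdown, led by Mat2a, Slc3a2 and Lap3, 23 were tested, with medians of 0.14 after glucose and 0.02 with lipid. Of 22 further thioredoxin system and sulfoxide repair genes, led by Txn1, Pdia3 and Txnl4a, 20 were tested, with medians of -0.04 and -0.02. Of 15 NADPH-producing enzyme genes, led by Idh2, Pgls and Mthfd1, 13 were tested, with medians of -0.21 after glucose and 0.05 with lipid. The 10 tested of 18 superoxide sources, led by Rac2, Cyba and Rac1, had medians of -0.01 after glucose and 0.36 with lipid, where 8 of 10 lay above 0. Without glucose with lipid replicate 1 that median was 0.11. In this replicate, which also held the neutrophil markers, Cyba stood at 443 FPKM, against 238 FPKM in replicate 2, and the part of those markers in the list's median was not tested. The 10 tested of 17 selenium genes, led by Sep15, Sepw1 and Selk, had -0.03 and 0.00, and the 15 tested of 17 regulators of reactive oxygen in stem cells, led by Park7, Meis1 and Mapk14, had 0.19 and 0.04. Of 18 iron and haem genes, led by Pcbp1, Hmox2 and Pcbp2, 17 were tested, with medians of 0.04 after glucose and 0.15 with lipid. With the other PBS pair as controls, the medians of the 9 lists ran from -0.06 to 0.07 after glucose and from -0.12 to 0.30 with lipid. Without replicate 1 they ran from -0.105 to 0.135 with lipid. Pcbp1, whose protein delivers iron to ferritin, came as near to a call as Ftl1 and in the opposite direction. It stood at 176 and 127 FPKM after glucose with lipid, against 339 and 293 FPKM in PBS H and I (-1.07 ± 0.16, limma, adjusted p = 0.084). PBS J and K held 180 and 163 FPKM of Pcbp1, and the glucose libraries 186 and 209 FPKM, so PBS H and I stood above the other 6 libraries.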

How the data were processed

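RNA from sorted LSK cells was turned into cDNA with SMART-Seq HT and into libraries with Nextera XT, per the labels' protocols. Per the submitters' processing notes, the mm10 build was used with Cuffnorm 2.2.1, SAMtools 1.0, Bowtie2 2.2.3 and TopHat2 2.0.13. For their options, the annotation and the strand setting, the sources used here give nothing. The deposited values were FPKM, 1 per gene symbol and library, a unit read from the values and the naming of Cuffnorm. Counts were not used here, so no count test was run and no counting interval is given. Depth was estimated from the smallest values of 51 to 104 single-transcript genes per library and is approximate. The microRNA gene Mir682 took 18.5% to 24.2% of the summed FPKM, a share of FPKM and not of fragments, since the gene is short.

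Values were transformed to log2(FPKM + 1), and 2 or more libraries at 1 FPKM or above were required for a test, which left 11931 genes. Limma 3.58.1 (R 4.3.3) was used for linear models and moderated variances with a trend, with 4 residual and 3.73 prior degrees of freedom for the 4 groups and 5 and 3.86 for treated against PBS. All p-values are 2-sided, with Benjamini-Hochberg adjustment over all genes tested. The procedure was run on simulated data with normal noise and added changes larger than most member differences. That run does not show whether changes of the size reported here could be called. The log2(FPKM + 1) scale understates differences of low genes. Gene positions came from RefSeq, as did the promoter windows (GRCm38.p6). GENCODE vM21 was used for the depth estimate and the names of pseudogenes. Figures were drawn with matplotlib 3.10.9, and tables were made with pandas 2.3.3 and numpy 2.4.6 in Python 3.11.15.

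The members, the lists and the comparisons were chosen with earlier results of these data known. All 39 members are named. The rule gave values in every library for Nfe2l2, Keap1, the highest and lowest member of each family, the 3 members per direction with the smallest unadjusted p in the treatment comparisons and the 2 in the other comparisons; further members with such values were chosen after these were seen. Of each list the 3 genes with the highest mean were named. Alternatives were a pseudocount of 0.1, no filter, rescaling of each library to a median ratio of 1, leaving out each library, exchanged or pooled PBS controls, a fit of 4 libraries alone, the letter as a replicate block and no control set block.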

Additional observations from a re-analysis of the deposited data

Results flagged for a closer look

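Over the 4 PBS libraries, Sod2 was at 44.57 FPKM in PBS J against 34.9 to 36.4 FPKM in the other 3, a gap beyond Dixon's 95% critical value. Prdx4 was at 148.6 FPKM in PBS H against 165 to 166 FPKM in the other 3, by the same criterion. Chance alone gives such a gap in about 1 of 20 groups of libraries, and 39 genes were examined.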

How the results depend on the processing

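No member was called under any alternative in the comparison of glucose, of treated against PBS or between the PBS pairs. The exception elsewhere was leaving out glucose with lipid replicate 2, after which 5 members, Gpx3 among them, were called with lipid and 4 in the difference of effects (ranges of 0 to 5 and 0 to 4 over the libraries left out). Counts of all genes called moved more. After glucose 12 were called, with 19 at a pseudocount of 0.1, 7 against all 4 PBS libraries and 8 to 32 with a library left out. With lipid 9 were called, with 3 without the filter, 28 with exchanged controls, 4 in a fit of the 4 libraries alone and 3 to 271 with a library left out. Treated against PBS gave 32, with 17 without the filter and 8 to 33 with a library left out. The difference of effects gave 2 (2 to 141 with a library left out), and the PBS pairs 6, with 2 without the filter and 3 to 15 with a library left out. The libraries that moved a count over 1.5 times were both of glucose with lipid (32 each) and PBS K (29) after glucose, and with lipid its replicate 2 (271), PBS H (3), I (5), J (18) and K (19). For treated against PBS they were glucose replicate 2 (8), PBS H (13) and I (18). For the difference of effects they were replicate 2 of glucose (6) and of glucose with lipid (141), PBS H (5), I (4), J (4) and K (5), and between the PBS pairs both of glucose with lipid (14 and 15) and PBS I (3). The cause was not tested. With the letter as a replicate block, 11 genes and 0 members were called with lipid, and Ftl1 had an adjusted p of 0.141. Deviations from the group mean correlated at 0.07 over 11931 genes between libraries of the same letter. With 2 libraries a group these deviations mirror each other, so H and I give the same value, which cannot decide on pairing. The letters were not taken as pairs. The member differences were counted as moved, by more than their standard error, in 61 of 532 values after glucose and in 62 of 570 with lipid. These totals hold alternatives that cannot change a difference, such as no filter or leaving out a library of another group. Members called under an alternative were not counted either, such as Hmox1 with lipid, at 1.64 and at 2.65 without replicate 2. The counts therefore understate the movement. With 2 libraries a group and no counts, depth sets no interval here, and a p that misses the threshold does not show equal levels.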
